A study of Mus musculus with 6 samples.

Results

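The signal recognition particle genes were examined in the retina of 5XFAD mice with and without efavirenz (EFV). They were 9 of the 19401 genes listed in at least 1 library, taken by symbol: Srp54a, Srp54b, Srp54c, Srp9, Srp14, Srp19, Srp68, Srp72 and Srprb, and all 9 passed the filter on low counts, as did 15537 genes in all. They were chosen with their difference between EFV and control already known, so their values in that contrast are a description, and no p-value is given for them. 5XFAD mice carry mutant human transgenes that cause rapid amyloid deposition; both groups were hemizygous 5XFAD on a B6SJL background. The EFV group received the drug in drinking water from 3 to 9 months of age, at 0.08 mg/kg of body weight according to the sample labels (the methods of the study give a slightly higher dose), and the control group received the vehicle (water with Tween 80). Each group had 3 libraries, each from a pool of 1 retina plus retinal pigment epithelium (RPE) per mouse from 5 to 6 mice aged 9 months, described as male. The spread between libraries therefore measures how pools of mice differed. The RNA is that of the whole tissue, in which fewer cells of a type and less RNA per cell cannot be told apart.

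The signal recognition particle (SRP) is a ribonucleoprotein that binds the signal sequence of secreted and membrane proteins as they leave the ribosome, slows their translation and brings the ribosome to the SRP receptor on the endoplasmic reticulum, where the chain is passed to the Sec61 channel. SRP54 is the GTPase that holds the signal sequence, SRP19 helps to load it on the SRP RNA, SRP9 and SRP14 form the heterodimer of the Alu domain that delays elongation, and SRP68 and SRP72 form the heterodimer that binds the middle of the RNA. The receptor has an alpha subunit, a GTPase that pairs with SRP54 (Srpr in the files, which is not a member here), and a beta subunit that anchors it in the membrane (Srprb). Photoreceptors renew their outer segments throughout life and make rhodopsin, a membrane protein, on the endoplasmic reticulum.

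In the mouse reference assembly, SRP54 is encoded by 3 genes in a row on the plus strand of chromosome 12. Their coding sequences were compared because reads from them are hard to assign. Whether the B6SJL background of these mice carries the same copies was not examined. In the mm10 (GRCm38) assembly, RefSeq places Srp54a at chr12:55080476-55115367, Srp54b at chr12:55155104-55189213 and Srp54c at chr12:55230118-55279331, with starts 74628 and 75014 bases apart. The coding sequences of the 3 copies, taken from the reference annotation of GRCm38, were 1512 bases long. Srp54a and Srp54b were identical at all 1512 bases, and Srp54c differed from both at 6, which leaves 99.6% identity and a longest identical run of 500 bases. With positions counted from 1 at the first coding base, and the base of Srp54a and Srp54b given first, the 6 differences were T501C, T945C, G946A, T965G, A1197T and G1249A. They lay in coding exons 7, 10 and 13 of 15, and the other exons held none. Coding exon 10 holds 3 of the 6 and is printed for all copies on the plus strand, with the bases that differ in capitals.
Srp54a, chr12:55102468-55102554: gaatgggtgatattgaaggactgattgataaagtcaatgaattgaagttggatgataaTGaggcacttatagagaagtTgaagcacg
Srp54b, chr12:55177528-55177614: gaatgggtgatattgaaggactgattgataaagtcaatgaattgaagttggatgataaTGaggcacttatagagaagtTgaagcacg
Srp54c, chr12:55252772-55252858: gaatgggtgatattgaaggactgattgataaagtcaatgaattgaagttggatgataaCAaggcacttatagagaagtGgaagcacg

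Coding exons 7 and 13 hold the remaining differences and are printed for Srp54b, whose coding sequence is that of Srp54a, and for Srp54c, with the bases that differ in capitals. Coding exon 7 holds the difference at position 501.
Srp54b, chr12:55174973-55175123: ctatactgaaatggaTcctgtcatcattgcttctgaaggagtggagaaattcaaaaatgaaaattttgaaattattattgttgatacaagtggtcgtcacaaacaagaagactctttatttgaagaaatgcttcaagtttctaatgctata
Srp54c, chr12:55250004-55250154: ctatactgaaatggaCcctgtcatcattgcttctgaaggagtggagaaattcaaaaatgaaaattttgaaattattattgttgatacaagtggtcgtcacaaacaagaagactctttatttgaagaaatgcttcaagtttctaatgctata
Coding exon 13 holds the differences at positions 1197 and 1249.
Srp54b, chr12:55183562-55183732: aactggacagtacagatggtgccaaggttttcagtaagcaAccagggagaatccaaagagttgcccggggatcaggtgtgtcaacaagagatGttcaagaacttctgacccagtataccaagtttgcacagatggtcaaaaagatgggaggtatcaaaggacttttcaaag
Srp54c, chr12:55257425-55257595: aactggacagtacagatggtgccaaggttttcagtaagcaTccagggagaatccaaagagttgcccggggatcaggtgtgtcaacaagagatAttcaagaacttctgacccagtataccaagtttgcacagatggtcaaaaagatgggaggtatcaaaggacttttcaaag

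The copies were also compared over whole transcripts. Of all stretches of 100 bases in 1 spliced transcript per copy, 27.9% of those of Srp54a, 10.5% of those of Srp54c and 1.6% of those of Srp54b occurred in no transcript of the other copies. A stretch of that length from Srp54b was therefore rarely unique. RSEM, which made the counts, divides such reads among the genes by estimation. The transcripts compared here were from GENCODE, with 4498 bases for Srp54a, 3646 for Srp54b and 3642 for Srp54c. The lengths behind the counts were 3396 to 4264, 3286 and 2521 to 2602 bases, so these shares may differ for the transcripts counted. The counts of all 3 genes were fractional in all 6 libraries, whereas those of Srp14, Srp19, Srp68, Srp72 and Srprb were whole in all 6, as counts of unshared reads are, and those of Srp9 were fractional in 5. For this reason the sum of the 3 Srp54 counts, which does not depend on how reads were divided among them, is given beside each gene.

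The libraries held 23455167 to 24590278 counts. The markers of rods summed to 23836 to 25889 FPKM (fragments scaled to the length of the gene and the size of the library) in all libraries, as a retina should, and those of cones to 315 to 375 FPKM, of Müller cells to 1024 to 1083, of microglia to 5.65 to 6.88 and of endothelium to 9.45 to 12.6. A few libraries stood apart. In control 3, the 5 lens markers summed to 249 FPKM, against 4.51 to 10.1 in the other 5 libraries. The 5 RPE markers summed to 13.4 FPKM in control 2 and to 20.98 to 27.7 in the others. The 4 Y-linked genes measured summed to 25.2 FPKM in EFV 3 and to 51.9 to 69.8 in the others, although all mice are described as male. Values without each of these libraries are given below.

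In these 6 pools, the summed Srp54 RNA was higher in EFV than in control, and the other 6 members differed little between the groups. Over all 15537 genes in the edgeR quasi-likelihood fit, none passed a Benjamini-Hochberg adjusted p of 0.05 (smallest 0.323), and 472 (3.04%) had an unadjusted p of 0.05 or less, while DESeq2 called 11 at the adjusted p, limma 0 and a Poisson model, which has counting error alone, 2043. The limits set in the methods of the study, an unadjusted p of 0.05 and a log2 fold change of 0.10 in size, were passed by 467 genes (3.01%), of which 228 (1.47%) were higher and 239 (1.54%) lower in EFV. With total counts in place of TMM scaling the split was 288 higher and 159 lower. Of the 9 members, 3 passed these limits, all higher in EFV: Srp54a, Srp54b and Srp54c, which share reads and were chosen with this contrast known, so that nothing is read from the count. None of the 9 passed the adjusted p in edgeR, DESeq2 or limma, and the 3 Srp54 genes did so in the Poisson model.

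Srp54a, the copy with the lowest level, had 9.98, 7.29 and 6.16 FPKM in controls 1, 2 and 3 and 9.84, 11.3 and 12.2 FPKM in EFV 1, 2 and 3. The groups overlapped in FPKM, where control 1 lay above EFV 1, and in CPM, where it lay below EFV 1 and above EFV 2. The underlying expected counts were 943, 597 and 513 in control and 978, 916 and 1240 in EFV. The log2 fold change of the counts was 0.59 with a standard error (SE) of 0.20, a fold of 1.501. The length that RSEM used for this gene, which joins a RefSeq transcript and 1 predicted by the authors, ran from 3396 to 4264 bases among libraries, so its FPKM moved with the estimated mix of transcripts as well as with the count.

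Srp54b had 42.7, 32.9 and 29.9 FPKM in the controls and 42.5, 44.6 and 49.0 FPKM in the EFV libraries. Here too control 1 lay just above EFV 1, and controls 2 and 3 were below every EFV library. Its counts were 3395, 2494 and 2357 in control and 3363, 3508 and 3829 in EFV, a log2 fold change of 0.35 (SE 0.11). This gene has 1 transcript in the files and a fixed length of 3286 bases.

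Srp54c had 52.5, 43.1 and 38.3 FPKM in the controls and 55.3, 53.8 and 57.4 FPKM in the EFV libraries. It was the 1 member whose groups did not overlap, which 1264 of all tested genes (8.14%) did, 614 of them (3.95%) higher in EFV. The gap between the groups was small, since control 1 stood close to EFV 2. Its counts were 3191, 2576 and 2313 in control and 3360, 3225 and 3434 in EFV, a log2 fold change of 0.28 (SE 0.09).

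The 3 copies together had 7529, 5666 and 5182 counts in controls 1, 2 and 3 and 7700, 7649 and 8502 counts in EFV 1, 2 and 3. In CPM, counts scaled to the size of the library, this was 305.5, 245.6 and 213.7 in control and 311.9, 316.1 and 347.3 in EFV. Every EFV library lay above every control library, as was so for 614 of all tested genes (3.95%). Still, control 1 lay nearer to EFV 1 than to control 2. The log2 fold change of the sum was 0.35 (SE 0.11), a fold of 1.28. As summed FPKM the level was 87.6 ± 15.8 in control and 112 ± 5.86 in EFV (mean ± SD, n = 3 pools each). Unlike the summed counts, the summed FPKM depends on how RSEM divided the reads, because the copies differ in length.

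**Figure D1:**
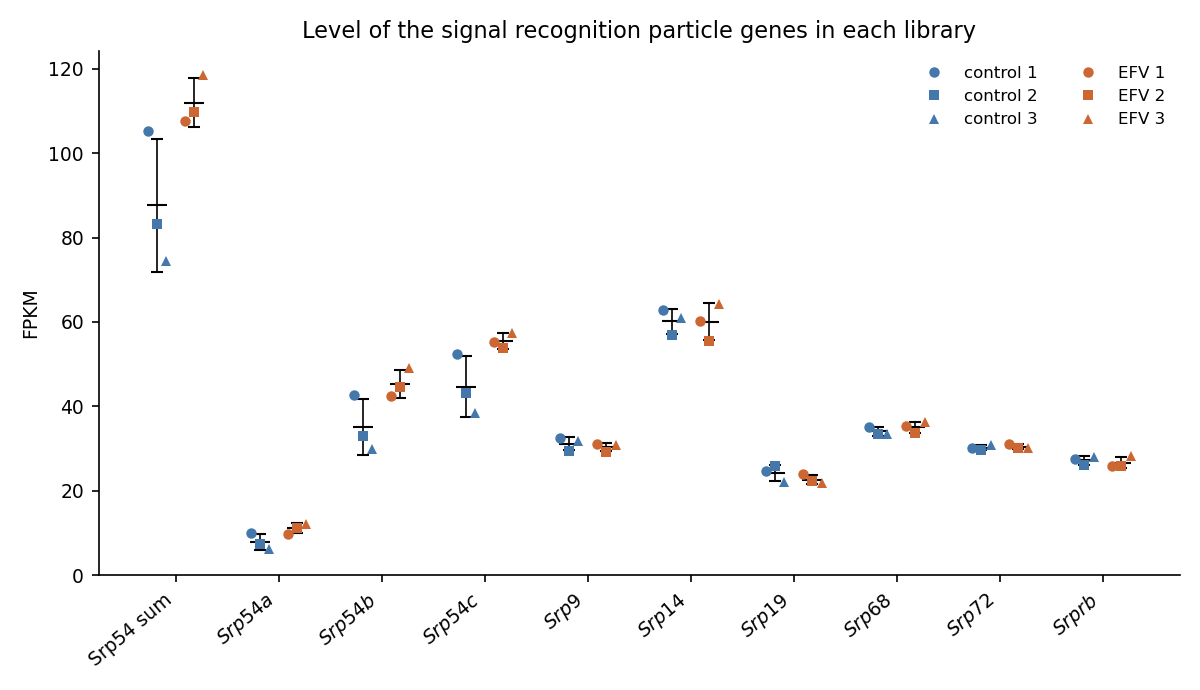
Level of each signal recognition particle gene and of the Srp54 sum. The vertical axis gives FPKM from 0; each point is 1 library (circle, square and triangle for pools 1, 2 and 3; blue control, orange EFV), and the bars give the mean and SD of the 3 pools. For the Srp54 genes control 1 sits with the EFV libraries and controls 2 and 3 sit below them, whereas the points of the other 6 genes run together, from 21.8 to 25.9 FPKM for Srp19 for example.

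The difference in Srp54 between the groups depended on which control pool was counted. Without control 1 the log2 fold change of the sum was 0.50, and without control 3, the library with lens RNA, it was 0.24. Without control 2, which had the lowest RPE markers, it was 0.32, and without EFV 3, the library with little Y-linked RNA, it was 0.30. It was above 0 in each case. Srp54b and Srp54c stayed past the limits of the study in each of the 6 fits that left out 1 library. Srp54a was no longer past them without control 2 and without EFV 3, with log2 fold changes of 0.52 and 0.45. The genes were chosen with this contrast known and the fits share libraries, so nothing is read from these calls. The part of the lens, RPE or Y-linked RNA in these values was not tested.

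The spread of Srp54 among the control pools was wide. The coefficient of variation (CV, SD over mean) of the summed Srp54 CPM was 18.3% in control and 5.96% in EFV, and the highest library held 1.63 times the CPM of the lowest. Within the groups, the SD of log2 CPM was 0.35 for Srp54a, 0.20 for Srp54b and 0.16 for Srp54c, against a median of 0.10 over all tested genes. Of the tested genes, 89.4% varied less than Srp54a, 77.1% less than Srp54b and 70.7% less than Srp54c. For the other members this SD ran from 0.02 for Srp72 to 0.10 for Srp19, and only 1.09% of tested genes varied less than Srp72.

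The share of Srp54b in the summed counts moved little, and that of Srp54a moved most for its size. Srp54b took 43.7% to 45.9% of the sum in the 6 libraries, and Srp54c took 42.4%, 45.5% and 44.6% in the controls and 43.6%, 42.2% and 40.4% in EFV. Srp54a took 12.5%, 10.5% and 9.9% in the controls and 12.7%, 11.97% and 14.6% in EFV. Its share was thus lowest in controls 2 and 3, where the sum was lowest, and highest in EFV 3, where the sum was highest. Since much of the transcripts is shared, these shares are estimates of RSEM, and a difference in share between copies cannot be told apart from a difference in how reads were divided.

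**Figure D2:**
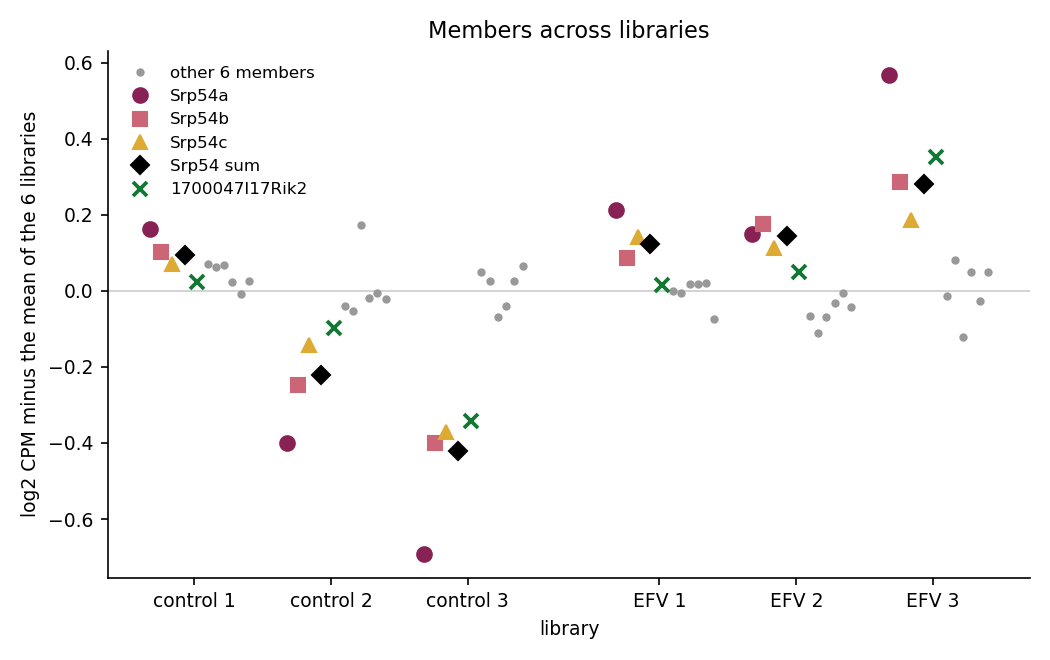
Members across libraries. The vertical axis gives log2 CPM minus the mean of the 6 libraries for that gene and the horizontal axis the library; colored symbols are the Srp54 genes, black diamonds their sum, green crosses 1700047I17Rik2, a gene between Srp54b and Srp54c, and gray points the other 6 members. The sum lies at 0.09, -0.22 and -0.42 in the controls and at 0.12, 0.14 and 0.28 in EFV, while the gray points stay between -0.12 and 0.17.

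The Alu domain subunits differed little between the groups. Srp14 (chr2:118475843-118479696) had 62.8, 56.9 and 60.8 FPKM in the controls and 60.2, 55.5 and 64.3 FPKM in EFV, a log2 fold change of -0.02 (SE 0.06). Srp9 (chr1:182124737-182132415) had 32.4, 29.5 and 31.7 FPKM in the controls and 31.0, 29.3 and 30.9 FPKM in EFV, a log2 fold change of -0.05 (SE 0.05). The groups overlapped for both. Their RNAs kept nearly 1 ratio, with Srp14 at 1.90 to 2.08 times the FPKM of its partner Srp9 in all 6 libraries.

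Srp68 and Srp72, which encode the other heterodimer, were the members with the least spread. Srp68 (chr11:116245166-116274217) had 35.2, 33.5 and 33.5 FPKM in control and 35.3, 33.6 and 36.2 FPKM in EFV, a log2 fold change of 0.02 (SE 0.04). Srp72 (chr5:76974701-76999935) had 30.2, 29.7 and 30.7 FPKM in control and 31.0, 30.1 and 30.2 FPKM in EFV, a log2 fold change of -0.01 (SE 0.04) that was 0.01 with total counts in place of TMM scaling. The ratio of Srp68 to Srp72 was 1.09 to 1.201.

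Srp19 (chr18:34331121-34336599) had the lowest level after Srp54a and the largest negative fold change of the members. It had 24.6, 25.9 and 22.2 FPKM in control and 23.9, 22.3 and 21.8 FPKM in EFV, with overlapping groups and a log2 fold change of -0.12 (SE 0.08). Leaving out each library in turn gave -0.18 to -0.06.

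At the receptor, Srprb (chr9:103188033-103202065) had 27.5, 26.1 and 28.0 FPKM in control and 25.8, 26.0 and 28.2 FPKM in EFV, a log2 fold change of -0.04 (SE 0.05). Srpr (chr9:35211203-35217003), the alpha subunit, had 26.5, 24.7 and 24.9 FPKM in control and 25.5, 24.7 and 25.6 FPKM in EFV, with a log2 fold change of -0.02 (SE 0.04; unadjusted p = 0.578, adjusted p = 0.999, edgeR). The receptor subunits were thus at similar levels, with Srprb at 1.01 to 1.13 times the FPKM of Srpr. The genes of the SRP RNA on the list (Rn7s1, Rn7s2 and Rn7s6) had no values under these symbols in any library and were not analysed.

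Per length, the order of the members by mean level was that of both groups, apart from Srp9 and Srp72, which changed places. Over the 6 libraries the summed Srp54 genes had a mean of 99.8 FPKM, Srp14 60.1, Srp54c 50.1, Srp54b 40.3, Srp68 34.5, Srp9 30.8, Srp72 30.3, Srprb 26.9, Srp19 23.4 and Srp54a 9.45. Srp14 was below the Srp54 sum in every library. Srp9 and Srp72 did not differ beyond their spread (29.3 to 32.4 and 29.7 to 31.0 FPKM), nor did Srp54c and Srp54b, whose ranges were 38.3 to 57.4 and 29.9 to 49.0 FPKM, although Srp54b was at 0.763 to 0.854 times Srp54c within each library. Srp68 lay above Srp9 in all libraries, and Srprb below Srp72. The ranges of Srprb and Srp19 met, although Srprb was above Srp19 within each library. Srp54b lay below Srp68 in controls 2 and 3 and above it in the other libraries. The summed Srp54 FPKM was 3.25, 2.80 and 2.35 times the median of Srp9, Srp14, Srp19, Srp68 and Srp72 in controls 1, 2 and 3 and 3.47, 3.65 and 3.84 times in EFV 1, 2 and 3. The ratio restates the contrast by which the genes were chosen, so nothing is read from it. In this ratio and in the order above, the summed FPKM depends on how RSEM divided reads among copies of unlike length.

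Next, the genes around Srp54 on chromosome 12 were compared between the groups. Of 40 other genes annotated within 500 kb of a copy, 14 had values and 13 were tested. With the limits of the study, 1 of the 13 was called, higher in EFV, against 3.01% of all tested genes, and the median log2 fold change of the 13 was 0.01 (0.00 over all tested genes). The gene called was 1700047I17Rik2 (Fam177a2 in RefSeq, chr12:55199264-55217168), a member of the FAM177 family, whose function is not well known and which lies between Srp54b and Srp54c. It had 18.7, 16.9 and 14.5 FPKM in controls 1, 2 and 3 and 18.8, 19.0 and 23.8 FPKM in EFV. Like Srp54, it was lowest in controls 2 and 3 and highest in EFV 3, and control 1 stood beside EFV 1. Its log2 fold change was 0.28 (SE 0.11; unadjusted p = 0.0299, adjusted p = 0.999, edgeR), and it was no longer past the limits without control 2, without control 3 or without EFV 3, nor with the replicate number as a block.

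This gene also belongs to a set of copies. Its coding sequence of 621 bases was identical to that of Fam177a (chr12:55124435-55142104), which lies between Srp54a and Srp54b. Of the stretches of 100 bases in the transcript of 1700047I17Rik2, 0.0% were absent from the other copies compared. Fam177a had no values under its identifier in any library, and where its reads were counted was not tested. Reads of 1700047I17Rik2 and Fam177a can therefore hardly be told apart, and the counts of 1700047I17Rik2 were fractional in all 6 libraries.

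The genes on either side of the row of copies differed little. On the side of Srp54a, 2700097O09Rik, whose function is not known and which ends 0.2 kb before Srp54a, had 6.91, 6.81 and 6.61 FPKM in control and 7.81, 6.80 and 6.10 FPKM in EFV, with a log2 fold change of 0.05 (SE 0.07; unadjusted p = 0.486, adjusted p = 0.999, edgeR). On the side of Srp54c, Ppp2r3c, a regulatory subunit of protein phosphatase 2A that starts 1.5 kb after it, had 9.37, 7.79 and 8.98 FPKM in control and 9.42, 8.52 and 8.77 FPKM in EFV, with a log2 fold change of 0.01 (SE 0.08; unadjusted p = 0.858, adjusted p = 0.999, edgeR). Controls 2 and 3, which were low for Srp54, were not both low for either gene. The differences from Srp54 were not tested, because Srp54 was chosen for its contrast.

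**Figure D3:**
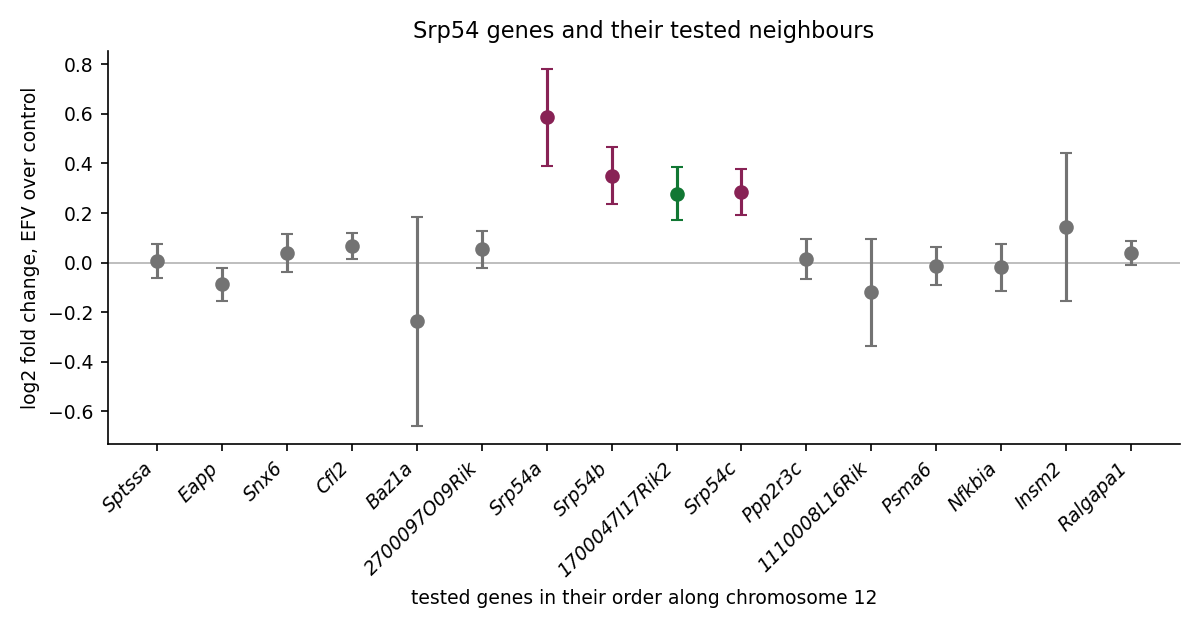
Srp54 genes and their tested neighbors. The vertical axis gives the log2 fold change (EFV over control) with its SE from edgeR, and the horizontal axis the 16 tested genes in their order along chromosome 12, not to scale. The Srp54 genes (purple) and 1700047I17Rik2 (green) lie at 0.28 to 0.59, and Baz1a and Insm2, with FPKM of 0.29 at most, have wide errors.

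The rest of the targeting and translocation machinery was described by a list of 55 genes in 8 complexes, of which 51 were tested. With the limits of the study 4 were called, 1 higher and 3 lower in EFV, beside 1.47% and 1.54% of all tested genes, and the median log2 fold change of the list was -0.01. None passed the adjusted p of 0.05 in edgeR, DESeq2 or limma, 7 did in the Poisson model, and 4 had an unadjusted p of 0.05 or less in edgeR.

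Sec61g, the small gamma subunit of the Sec61 channel that receives the chain from the SRP receptor, had 25.6, 23.2 and 27.0 FPKM in control and 20.4, 23.5 and 20.5 FPKM in EFV. Its groups did not overlap in CPM, though EFV 2 had slightly more FPKM than control 2. Its log2 fold change was -0.25 (SE 0.09; unadjusted p = 0.0189, adjusted p = 0.999, edgeR), and it was not past the limits without control 3, without EFV 1 or without EFV 3. None of the other 8 tested genes of the channel and its partners was called. Hspa5, the luminal chaperone BiP and the most abundant of them, had 82.9 ± 4.70 FPKM in control and 82.3 ± 6.00 FPKM in EFV (mean ± SD, n = 3 pools each).

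The other 3 genes called belong to the oligosaccharyltransferase, the complex that adds N-glycans to chains as they enter the endoplasmic reticulum. Ddost, a subunit of its core, had 26.7, 27.1 and 28.5 FPKM in control and 25.1, 24.5 and 25.4 FPKM in EFV, so that every EFV library was below every control. Its log2 fold change was -0.15 (SE 0.05; unadjusted p = 0.00842, adjusted p = 0.999, edgeR), and Ddost stayed past the limits in each of the 6 fits without 1 library. Ostc, a subunit of the form of the enzyme that works beside the channel, had 37.7, 35.6 and 33.1 FPKM in control and 33.2, 31.7 and 32.7 FPKM in EFV, with a log2 fold change of -0.14 (SE 0.06; unadjusted p = 0.0488, adjusted p = 0.999, edgeR). It lost the call in 5 of the 6 fits without 1 library, with DESeq2 and limma, with total counts in place of TMM scaling (unadjusted p = 0.0836, edgeR), with at least 10 counts in all 6 libraries (0.0511) and with the replicate number as a block (0.0534). Tusc3, an oxidoreductase subunit of the form that can also act after translation, had 31.6, 28.2 and 26.9 FPKM in control and 30.7, 33.7 and 33.9 FPKM in EFV, with overlapping groups and a log2 fold change of 0.17 (SE 0.06; unadjusted p = 0.0308, adjusted p = 0.999, edgeR). It lost the call without control 2, control 3, EFV 2 or EFV 3. The remaining 9 of the 12 subunits, among them the most abundant, Dad1 (log2 fold change -0.11, SE 0.05), were not called.

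In the other 6 complexes none of the tested genes was called. The most abundant gene of each had log2 fold changes near 0: 0.02 (SE 0.04) for Naca of the nascent chain complex, which binds new chains at the ribosome, -0.05 (SE 0.05) for Ssr2 of the TRAP complex, which sits beside the channel, 0.04 (SE 0.05) for Spcs2 of the signal peptidase, which cuts off the signal sequence, -0.03 (SE 0.05) for Bag6 of the pathway for tail-anchored proteins, which do not need SRP, and -0.08 (SE 0.05) for Emc4 of the ER membrane complex, which inserts membrane proteins. Srpr, given above, stood for the receptor.

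**Figure D4:**
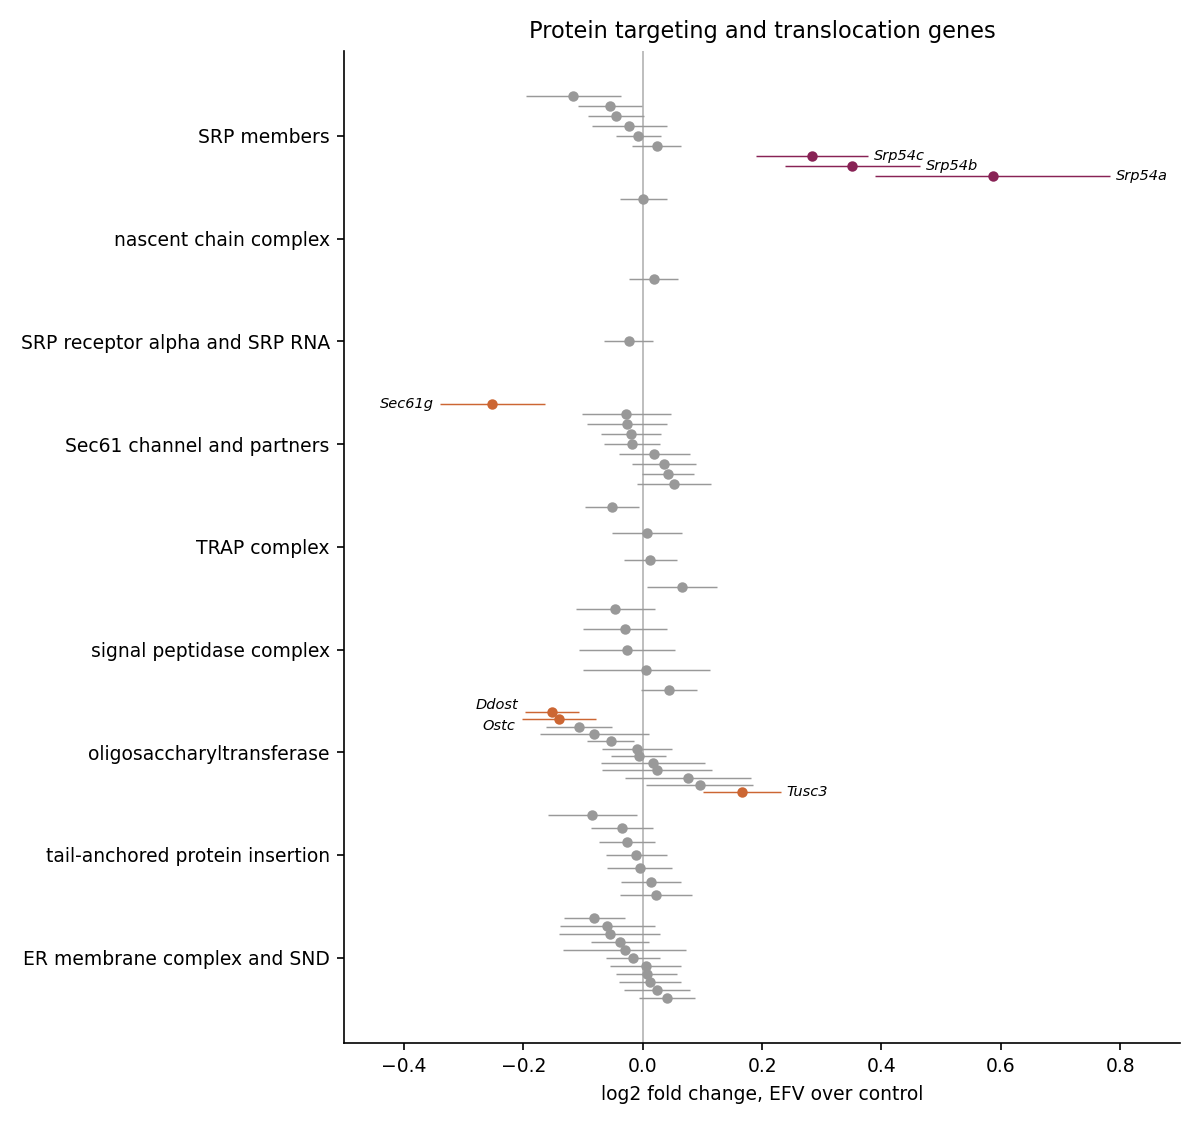
Protein targeting and translocation genes. The horizontal axis gives the log2 fold change (EFV over control) with its SE from edgeR; each point is 1 tested gene, grouped by complex, and named points are past the limits of the study (purple for members, orange for others). The Srp54 genes lie to the right of all 51 genes of the list, which run from -0.25 for Sec61g to 0.17 for Tusc3. They share reads and were chosen with this contrast known, so nothing is read from their place beside the list.

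Finally, genes whose values over the 6 libraries were most like those of the summed Srp54 counts were sought among the 4057 tested genes of similar or larger spread. The measure was the root mean square (RMS) difference of log2 CPM, each gene centered on its mean of the 6 libraries; the centered sum itself had an RMS of 0.24. The 5 closest were Ankef1, which encodes a protein with ankyrin repeats (RMS difference 0.05), Gal, the neuropeptide galanin (0.07), Klhl28, a member of the kelch-like family (0.08), Tex15, known for its role in male germ cells (0.08), and Cldn15, a claudin of tight junctions (0.08). All but Klhl28 were at 0.38 to 0.69 FPKM, where counting error is large. Klhl28, also on chromosome 12 (chr12:64941486-64965581) but far from Srp54, had 4.33, 3.86 and 3.27 FPKM in control and 4.75, 4.6 and 4.18 FPKM in EFV. In CPM, on which likeness was measured, it had 37.2, 33.5 and 27.3 in control and 39.2, 37.8 and 39.9 in EFV. EFV 3 was thus its highest library in CPM, but in FPKM it lay below control 1, unlike the Srp54 sum. 1700047I17Rik2 ranked 10 of the 4057, with an RMS difference of 0.09. With so many genes compared over 6 libraries, close matches are not evidence of a relation.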

How the data were processed

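Retinal RNAseq of the 6 pools was processed by the authors, who aligned filtered reads to mm10 with Bowtie2 2.2.5 and derived expected counts per gene with RSEM 1.2.12; the submitters' processing notes also list HISAT2 2.0.4, with no role. The authors deposited expected counts, which are not normalized, and FPKM values, rounded, with 0.01 as the smallest listed, so an absent gene was taken as 0. The read filter, annotation release and strand setting are not given in the sources used here. Libraries were polyadenylated RNA according to the labels.

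Expected counts were rounded and compared between groups in edgeR 4.0.16 under R 4.3.3 (quasi-likelihood F test), with TMM scaling, group as the only term and BH adjustment, on genes that reached 10 counts in 3 or more libraries (14377 with an Entrez identifier and 1160 that the authors predicted). In a second fit the 3 Srp54 rows were replaced by their sum. Calls used an adjusted p of 0.05 or the limits of the study, which applied its limits to a Poisson model. The smallest two-sided p of an exact permutation test of 3 against 3 libraries is 0.10, so p-values rest on the model. For members, SE and overlap are given instead. The SE from edgeR is the size of the log2 fold change divided by the square root of the F statistic. Beside the fold change it therefore carries what the p-value carries, and is not a separate measure. DESeq2 1.42.0, limma 3.58.1 on log2(FPKM + 0.1) and log2(FPKM + 1), a Poisson model, other scalings and filters, the replicate number as a block, and leaving out each library were alternatives.

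The members and lists were chosen with earlier results of these data known. Named genes were all members and their Srp54 sum, Srpr, the genes of the list and of the region within 500 kb past the limits of the study, the most abundant gene of each complex, the nearest 3 tested neighbors, and the 5 genes most like the sum, among genes whose own RMS was at least that of the sum divided by 1.5. Baz1a and Insm2 were named after their values were seen. Groups were taken to overlap or not on CPM with TMM scaling. Gene positions and symbols come from RefSeq (GRCm38.p6), and coding sequences and transcripts from GENCODE annotation of GRCm38. Protein sequences were not used here.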

Additional observations from a re-analysis of the deposited data

How the results depend on the processing

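The log2 fold change of the summed Srp54 counts was above 0 under all 19 alternatives, at 0.24 to 0.50 when 1 library was left out and at 0.35 to 0.37 otherwise. Each Srp54 gene kept its direction under all 17 of its alternatives. The number of members past the limits of the study was 3 under all alternatives but the Poisson model, which gave 4 (Srp19 in addition, lower in EFV), and 2 of the fits without 1 library, which gave 2. The members were chosen with this contrast known, so these numbers are a description. Of the fold changes of members and named genes, 479 of 492 kept their direction, and the rest were values near 0 of Srp14, Srp72, Srpr, Hspa5, Bag6 and Ppp2r3c. Over all genes, DESeq2 called 11 at an adjusted p of 0.05 and 269 by the limits of the study (124 higher and 145 lower in EFV), and the Poisson model, which has counting error alone, 2043 and 2305 (1133 higher and 1172 lower) and 7 genes of the targeting list at the adjusted p. With total counts, 159 genes were lower. Leaving out 1 library gave 0 to 1 genes at the adjusted p (1 without EFV 1), 389 to 576 by the limits of the study, 2 to 3 genes of the targeting list (2 without control 2 or EFV 3) and 0 to 1 genes near Srp54 (0 without control 2, control 3 or EFV 3). The cause was not tested.

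The replicate number as a block gave 514 genes by the limits of the study, a log2 fold change of 0.36 for the summed Srp54 counts and 0 genes near Srp54, where 1700047I17Rik2 had an unadjusted p of 0.0568; in the targeting list Ostc lost its call (unadjusted p of 0.0534). Deviations of libraries with the same number correlated at 0.12, 0.08 and 0.10, and each library correlated best with its own number, which is a hint from the data and not from the design. The study describes the EFV mice as littermates of the control mice, but does not say which pools shared litters. The labels do not say that numbers mark a shared litter or day, so the libraries were not treated as paired. The labels call the pools separate samples, and p-values measure the spread between these pools only. The depth of the libraries leaves the abundant members limited by the spread between pools, and genes near 10 counts by counting.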
